A study of Mus musculus with 6 samples.

Results

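A set of 22 protein-coding genes lay near the bottom of the scale in every Control library of mouse liver iNKT cells. The same genes lay well above it in every cKOHet library, which lacked most Ets1 transcript. They were chosen by their values: every one of the 3 Control values had to be below 10 normalised read counts and every one of the 3 cKOHet values at or above 40. The 22 genes were found among the 10927 genes of the table that the annotation calls protein-coding, out of 12942 genes in all. A further 9 protein-coding genes with the same values were left out by name: Itgad, Itgae, Il9r, Ccr8, Tox2, Slc6a20a, Slc41a2, Cx3cr1 and Il1rl1. Because the same comparison chose the genes, their difference between the groups is given as a description, without a test.

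Invariant natural killer T (iNKT) cells are innate-like T cells that carry a nearly fixed T cell receptor and recognise lipids presented by CD1d. The iNKT1 subset depends on T-bet, the transcription factor encoded by Tbx21, and is common in the liver. Ets1, the founding member of the Ets family, is a transcription factor abundant in resting lymphocytes. Several of the 22 genes are known from other cells: peptide hormone genes from neurons and endocrine cells, Cpa3 from mast cells, and others from neurons. They are not typical genes of T cells.

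The cKOHet mice had the genotype Tbx21Cre Ets1F/F Tbx21F/+ Rosa26-YFP+, and the Control mice were Tbx21Cre Rosa26-YFP+. Both groups thus carried the Cre named Tbx21Cre and a YFP reporter that Cre activates. Liver cells were sorted for binding of the CD1d tetramer together with YFP. Deletion was therefore limited to cells in which the Tbx21-driven Cre had been active, and cells of the same sort in the cKOHet mice differed from Control in the floxed Ets1 alleles and in 1 floxed Tbx21 allele together. The effect of Ets1 loss and that of the floxed Tbx21 allele cannot be told apart here. There were 3 libraries per group, numbered 1, 2 and 4, and the ages of the mice are not given in the labels. Control replicate 4 and cKOHet replicate 1 are titled iNKT, whereas the other libraries are titled iNKT1. The titles do not explain this difference. In either group, replicate 1 carries a pair of sample codes for which no explanation was found, so its values may stand for more than 1 sample. The design text also names cells from thymus and mice in which Ets1 alone was floxed, not analysed here.

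Levels are the normalised read counts that the authors deposited, whose column sums lay between 4996523 and 5219483. Ets1 was at 462, 596 and 441 in cKOHet libraries 1, 2 and 4, against 7391, 6255 and 7787 in Control libraries 1, 2 and 4. All 3 cKOHet libraries lay far below all 3 Control libraries, and some reads remained in each. The labels do not say which part of Ets1 is floxed, so the remaining reads do not show an intact transcript. Tbx21 was at 2174, 2316 and 2127 in the cKOHet libraries and at 2434, 2504 and 2765 in the Control libraries, a log2 difference of -0.22 (SE 0.11) that was not called (limma adjusted p = 0.196). Genes that define the labelled cells were present in every library, but not all were at the same level in the groups. Zbtb16 (PLZF) was higher, with 954 ± 261 in cKOHet and 648 ± 21.7 in Control (SD, n = 3 each, limma adjusted p = 0.0267), a call that was lost without cKOHet replicate 4 or any 1 Control library. Il2rb, a chain of the IL-15 receptor, was lower, with 12376 ± 1882 in cKOHet and 20260 ± 338 in Control (limma adjusted p = 0.00285), and so was the chemokine gene Xcl1, with 206 ± 31.4 and 749 ± 172 (limma adjusted p = 2.11e-06). Cd3e (5083 ± 559 in cKOHet and 4031 ± 706 in Control) and Traj18, the joining segment of the fixed receptor chain (66.9 ± 2.17 and 62.0 ± 17.8), were not called, Cd3e except without Control replicate 4 (limma adjusted p = 0.0360). Klrb1c was not called either (limma adjusted p = 0.994), at 1169, 859 and 1289 in cKOHet and 892, 545 and 2626 in Control. Its level in Control replicate 4 was above that of every other library. Replicate 4 of each group, with Xist at 0.0816 in cKOHet and 1.17 in Control and with reads from the Y chromosome, stood apart from replicates 1 and 2 in sex, so the sexes were balanced between the groups. In bulk libraries fewer cells of a type and less RNA per cell cannot be told apart, and this holds for every level below.

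Summed over the 22 genes, the level was 2703, 3290 and 2722 in the cKOHet libraries, against 53.2, 84.6 and 91.3 in the Control libraries. This was 0.0535, 0.0647 and 0.0521% of all normalised reads in the cKOHet libraries. A few genes held most of that sum. Calca alone held 29.0% of the summed cKOHet means, Calca and Gcg 41.1%, and these with Mmp25 48.9%. Means were at least 100 for 6 genes and below that for the other 16. In Control libraries the lowest band of values (below 0.5, where the deposited table puts genes without reads) was reached in all 3 libraries by 1 gene, Gcg. It was reached in 2 Control libraries by 3 genes, in 1 by 6 genes and in none by 12 genes. Thus only Gcg was without reads in every Control library, and 12 genes were low rather than absent.

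**Figure D1:**
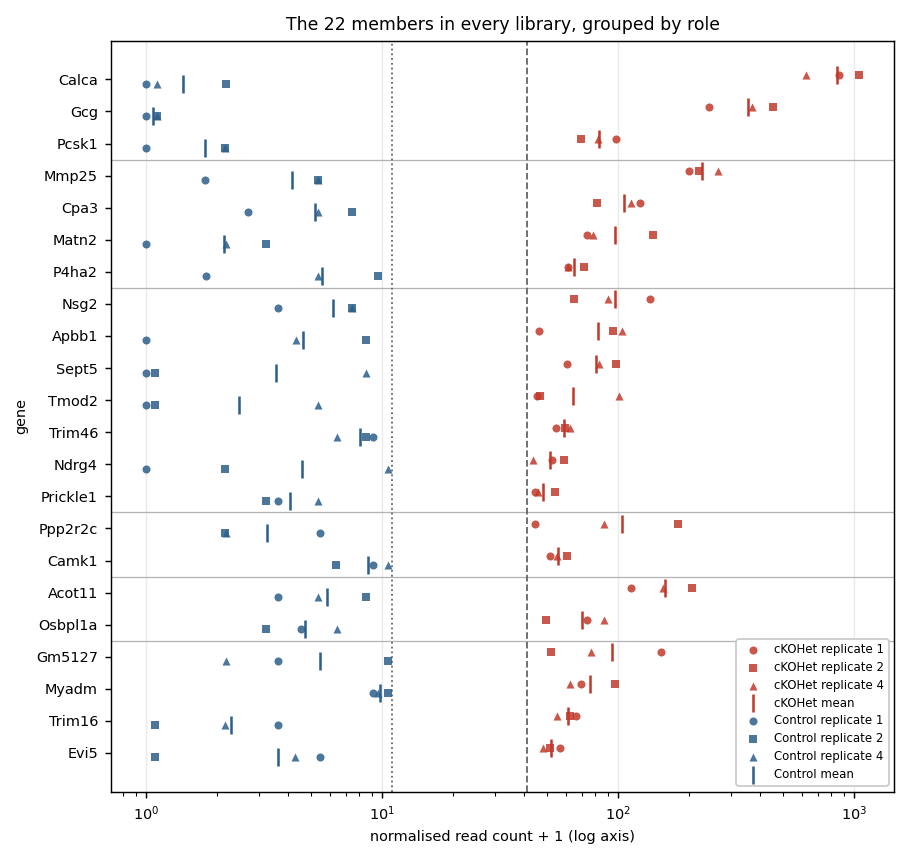
Normalised read count + 1 (log axis) of the 22 genes in each cKOHet library (red) and each Control library (blue), grouped by role, with group means as short vertical lines. The dotted line marks the upper limit of 10 for Control and the dashed line the lower limit of 40 for cKOHet, each plus 1, and the gap between the groups is fixed by this choice.

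Among the 22, 3 genes belong to the making of peptide hormones: Calca, Gcg and Pcsk1. Calca (ENSMUSG00000030669, mm10 chromosome 7, 114631478 to 114636357, minus strand) encodes calcitonin and, by alternative splicing, the neuropeptide CGRP alpha. Its level was 861, 1043 and 620 in the cKOHet libraries, against 0, 1.17 and 0.112 in the Control libraries. All 3 cKOHet libraries were high, and no Control library exceeded 1.17. Gcg (ENSMUSG00000000394, chromosome 2, 62474530 to 62483650, minus strand) encodes proglucagon, the precursor of glucagon and of the incretin GLP-1. It was at 242, 452 and 367 in the cKOHet libraries and at 0, 0.105 and 0.109, the lowest band, in the Control libraries. Pcsk1 (ENSMUSG00000021587, chromosome 13, 75089826 to 75134861, plus strand) encodes the prohormone convertase that cuts such precursors, proglucagon included. It was at 96.7, 68.8 and 81.0 in the cKOHet libraries, against 0, 1.16 and 1.16 in the Control libraries. A precursor gene and the gene of an enzyme that processes it were therefore both present in all cKOHet libraries and at no more than 1.16 in any Control library.

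Per kilobase of annotated exon, Calca had 499.7 and Gcg 237 normalised read counts in cKOHet, at percentiles 96.6 and 91.8 of all genes in the table. Pcsk1, with 14.7 per kilobase, stood at percentile 31.4. Only 5 of the 22 genes were above the median gene on this per-length scale in cKOHet, the others being Cpa3 (69.2, percentile 69.8), Gm5127 (43.1, percentile 57.2) and Mmp25 (42.7, percentile 56.9). Most of the 22 were thus weakly expressed genes even where they were high, whereas Calca and Gcg were among the more abundant transcripts.

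The sequences upstream of the RefSeq starts of the 3 peptide genes and of Cpa3, a mast cell carboxypeptidase gene, are shown because these genes are known from cells other than T cells. They are RefSeq windows on GRCm38.p6, read 5′ to 3′ on the strand of the gene: chr7:114636358-114636607 (minus) for Calca, chr2:62483654-62483903 (minus) for Gcg, chr13:75089607-75089825 (plus) for Pcsk1 and chr3:20242182-20242431 (minus) for Cpa3. The Pcsk1 stretch ends 31 bases before the RefSeq start, where an annotated GENCODE exon begins. Capitals mark a match, on either strand, to a motif that Ets factors bind (CCGGAA), to a motif that Runx factors bind (TGTGGT) or to the TATA box (TATAAA).
Calca: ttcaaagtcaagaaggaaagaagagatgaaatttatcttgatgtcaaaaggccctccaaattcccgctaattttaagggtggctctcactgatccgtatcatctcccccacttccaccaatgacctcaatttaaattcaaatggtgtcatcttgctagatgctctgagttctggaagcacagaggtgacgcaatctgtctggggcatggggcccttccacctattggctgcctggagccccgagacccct
Gcg: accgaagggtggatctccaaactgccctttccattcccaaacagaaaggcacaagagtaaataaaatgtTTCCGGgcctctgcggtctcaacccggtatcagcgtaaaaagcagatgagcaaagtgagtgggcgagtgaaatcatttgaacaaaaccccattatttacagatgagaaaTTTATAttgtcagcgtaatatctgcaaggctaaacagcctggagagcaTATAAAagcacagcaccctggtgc
Pcsk1: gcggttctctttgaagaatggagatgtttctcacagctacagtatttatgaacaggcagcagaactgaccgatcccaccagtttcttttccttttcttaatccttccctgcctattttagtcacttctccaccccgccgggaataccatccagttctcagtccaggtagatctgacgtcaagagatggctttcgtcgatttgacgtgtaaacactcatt
Cpa3: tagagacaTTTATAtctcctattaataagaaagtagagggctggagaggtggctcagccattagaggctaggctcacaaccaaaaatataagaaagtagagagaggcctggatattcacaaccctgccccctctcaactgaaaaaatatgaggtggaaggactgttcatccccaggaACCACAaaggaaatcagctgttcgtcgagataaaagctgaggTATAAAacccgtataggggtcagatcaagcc
The Gcg window holds an Ets match beginning 181 bases before the start and TATA matches beginning 72 and 24 bases before it. The Cpa3 window holds a Runx match 73 bases before the start and TATA matches 242 and 31 bases before it. The Calca and Pcsk1 stretches printed hold none of the motifs searched.

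Windows of 300 bases (250 before and 50 after the start) were found for 18 of the 22 genes, and Matn2, Trim16, Osbpl1a and Sept5 had none. The motif CCGGAA was in 3 of the 18 (16.7%: Gcg, Ndrg4 and Ppp2r2c), against 19.6% of 16521 protein-coding windows. The Ets motif ACAGGAAG was in 0 of 18 (3.10% of all windows), the T-box motif AGGTGTGA in 0 (1.20%) and the AP-1 motif TGANTCA in 0 (7.04%). The Runx motif TGTGGT was in 4 (22.2%: Apbb1, Cpa3, Gm5127 and P4ha2), against 14.8% of all windows. TATAAA was in 3 (16.7%: Cpa3, Gcg and Gm5127), against 12.8% of all windows. Both strands were searched, no match overlapped a match of another motif, and in Gm5127 a pair of TATAAA matches, 134 and 132 bases before the start, overlapped each other. Each of these shares was within 2 windows of the share in all genes, and absence of a match says only that the letters are not in the window. A CpG content of at least 0.6 (observed over expected) was found in 10 of 18 windows (55.6%), against 49.96% of all protein-coding windows and 77.0% of the 8091 windows of genes that were tested.

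The partners of these peptides were examined in lists chosen with earlier results of the data known. Changes in them were tested with limma on log2(value + 1) over the 11226 genes at or above 10 in at least 3 libraries, with Benjamini-Hochberg adjustment. Over all genes tested, 21.4% were called at an adjusted p under 0.05, with 11.5% higher and 9.97% lower in cKOHet. The 22 genes themselves all passed that filter because of how they were chosen, so no count of them is read against this share. Of 33 peptide hormone and neuropeptide genes, 29 were not in the table, and beside Calca and Gcg only Calcb and Nmb were tested. Calcb, which encodes CGRP beta and lies 82.3 kb from Calca, was at 20.1, 26.2 and 19.7 in the cKOHet libraries and at 0, 0.0627 and 0.0652 in the Control libraries, all in the lowest band (limma adjusted p = 1.50e-04). It was higher in 3 of 3 cKOHet libraries and missed the set only because it stayed under 40. It passed the filter through the cKOHet libraries alone, so it could only be called higher. Nmb (neuromedin B) was at 38.3, 37.0 and 23.0 in cKOHet and at 61.0, 55.9 and 53.9 in Control, a log2 difference of -0.81 (SE 0.32) that did not pass (limma adjusted p = 0.0924).

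None of the tested receptor genes for the same peptide families was higher. Of 15 listed, 4 were tested, and 2 were lower in cKOHet and 2 not called. Ramp1, the chain that with the product of Calcrl forms the CGRP receptor, was at 35.3, 23.9 and 23.0 in the cKOHet libraries, against 246, 199 and 272 in the Control libraries (log2 difference -3.09, SE 0.26, limma adjusted p = 5.88e-07). Calcrl itself was at 48.3, 28.6 and 57.2 in cKOHet and at 59.1, 72.7 and 90.8 in Control, which was not called (-0.75, SE 0.32, limma adjusted p = 0.119). Crcp, listed because its product is named after the CGRP receptor, was at 126, 144 and 142 in cKOHet and at 102, 108 and 121 in Control. It was not called either (0.31, SE 0.20, limma adjusted p = 0.313). Of these 3 genes only Ramp1 passed the test. Vipr1, a receptor for vasoactive intestinal peptide, fell to 3.04, 3.55 and 8.42 in cKOHet, against 130, 143 and 139 in Control (-4.64, SE 0.41, limma adjusted p = 8.66e-07). The glucagon and GLP-1 receptor genes Gcgr and Glp1r were not in the table.

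Beside Pcsk1, 8 genes for prohormone-processing enzymes were tested, and 2 were higher, 2 lower and 4 not called. Cpd, a carboxypeptidase that trims cut precursors in the trans-Golgi network, was at 129, 176 and 156 in the cKOHet libraries and at 8.14, 21.2 and 12.8 in the Control libraries (3.44, SE 0.36, limma adjusted p = 4.54e-06). Dpp4, the surface peptidase that inactivates GLP-1, was at 1518, 1353 and 1502 in cKOHet and at 423, 404 and 367 in Control (1.87, SE 0.12, limma adjusted p = 3.48e-08). Pam, the enzyme that amidates peptides such as CGRP, was lower, at 21.2, 19.4 and 18.8 in cKOHet against 45.3, 56.9 and 61.2 in Control (-1.41, SE 0.34, limma adjusted p = 0.00711), though not in the libraries with high Xist (replicates 1 and 2 of each group) alone (limma adjusted p = 0.0675). Pcsk4 was also lower (-2.32, SE 0.68, limma adjusted p = 0.0228), a call that was lost without cKOHet replicate 2, Control replicate 1 or Control replicate 2. Furin, Mbtps1, Pcsk7 and Ide were not called, with log2 differences between -0.11 and 0.34. The processing genes therefore moved in both directions, and the granule genes Chga, Chgb, Scg2 and Cpe, which accompany Pcsk1 in endocrine cells, were not in the table.

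**Figure D2:**
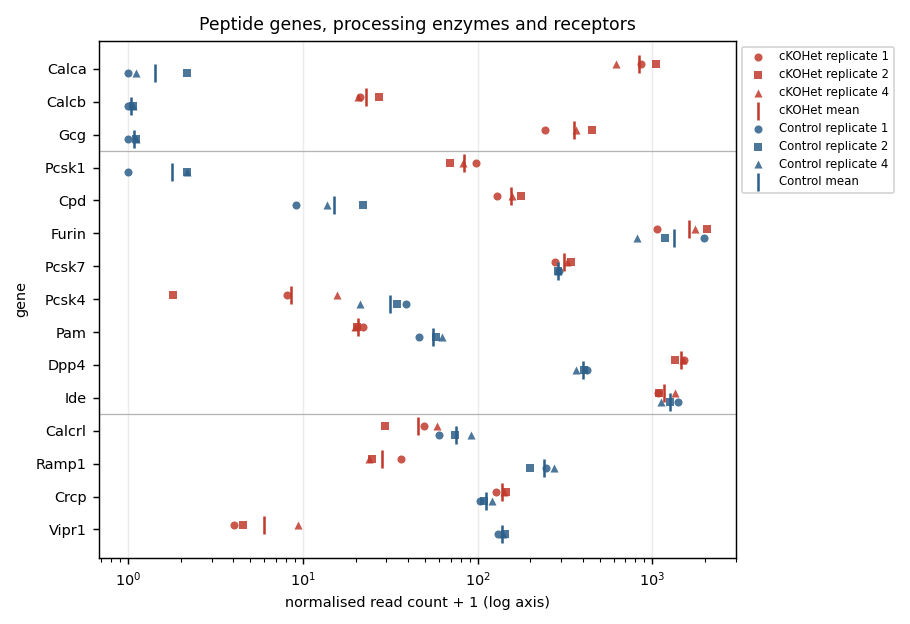
Normalised read count + 1 (log axis) in each cKOHet library (red) and Control library (blue) for peptide genes, processing enzymes and receptors, with group means as short vertical lines. Calca, Calcb and Gcg lie near 1 in every Control library, whereas the receptor genes Ramp1 and Vipr1 lie lower in every cKOHet library than in any Control library.

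Proteases and matrix genes gave 4 of the 22. Mmp25 (ENSMUSG00000023903, chromosome 17, 23628311 to 23645277) encodes a matrix metalloprotease anchored to the cell surface and known from neutrophils. Its level was 197, 218 and 263 in the cKOHet libraries, against 0.770, 4.34 and 4.35 in the Control libraries, and its group means differed 71.7-fold. Cpa3 (chromosome 3, 20215620 to 20242181), the carboxypeptidase stored in mast cell granules, was at 123, 79.8 and 112 in cKOHet and at 1.69, 6.45 and 4.35 in Control. Both genes had some reads in every Control library. Matn2, which encodes the matrix protein matrilin-2, was at 72.5, 139 and 76.9 in cKOHet, against 0, 2.22 and 1.17 in Control. P4ha2, a subunit of the prolyl hydroxylase that modifies collagen, was at 60.4, 70.7 and 60.3 in cKOHet and at 0.781, 8.54 and 4.34 in Control. Matn2 was highest in cKOHet replicate 2, whereas P4ha2 varied little among the cKOHet libraries.

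Of the other metalloproteases and their inhibitors, 3 of a list of 27 were tested and all 3 were called, 1 higher and 2 lower. Mmp9, the secreted gelatinase, was at 0.0144, 0 and 6.33 in the cKOHet libraries, against 2148, 2665 and 4626 in the Control libraries (-10.58 on the log2(value + 1) scale, SE 0.58, limma adjusted p = 7.69e-09). Mmp9 thus went the opposite way to Mmp25. Timp2, an inhibitor of these enzymes, was at 356, 445 and 500.5 in cKOHet and at 143, 97.2 and 101 in Control (1.93, SE 0.19, limma adjusted p = 3.40e-06). Reck, a membrane-bound inhibitor, was at 30.2, 29.6 and 27.1 in cKOHet against 68.4, 59.0 and 66.5 in Control (-1.13, SE 0.30, limma adjusted p = 0.0133), and this call was lost without Control replicate 1 and in the high-Xist libraries alone.

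A group of 7 genes is best known from neurons. Nsg2, which encodes a neuronal endosome protein, was at 135, 64.0 and 89.4 in the cKOHet libraries, against 2.61, 6.45 and 6.46 in the Control libraries. Apbb1 (Fe65), an adaptor that binds the amyloid precursor protein, was at 45.3, 93.9 and 103 in cKOHet and at 0, 7.50 and 3.29 in Control. Sept5, a septin found at synaptic vesicles, was at 59.4, 96.8 and 82.1 in cKOHet and at 0, 0.0915 and 7.52 in Control. These genes differed in which cKOHet library was highest: replicate 1 for Nsg2, replicate 4 for Apbb1 and replicate 2 for Sept5. Tmod2, the neuronal tropomodulin that caps actin filaments, was at 44.3, 45.5 and 99.6 in cKOHet, against 0, 0.0875 and 4.34 in Control. Trim46, which organises microtubules at the start of the axon, was at 53.4, 58.6 and 61.3 in cKOHet and at 8.16, 7.49 and 5.40 in Control. Trim46 had reads in every Control library, and its group means differed 8.23-fold. Ndrg4 was at 51.3, 57.7 and 42.6 in cKOHet and at 0, 1.15 and 9.61 in Control, and Prickle1, a planar cell polarity protein, at 43.3, 53.1 and 44.7 against 2.62, 2.21 and 4.33. None of the neuron markers Tubb3, Rbfox3, Snap25, Syt1 and Prph was in the table.

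Signalling subunits and lipid proteins gave 2 genes each. Ppp2r2c, a regulatory subunit of protein phosphatase 2A known from brain, was at 43.3, 179 and 86.3 in the cKOHet libraries, against 4.45, 1.16 and 1.17 in the Control libraries. Camk1, a calcium/calmodulin-dependent kinase, was at 50.3, 59.5 and 54.0 in cKOHet and at 8.16, 5.38 and 9.62 in Control. Ppp2r2c was the most variable of the 22 and Camk1 among the least. Acot11, an acyl-CoA thioesterase, was at 112, 204 and 154 in cKOHet against 2.61, 7.51 and 4.35 in Control. Osbpl1a, an oxysterol-binding protein of late endosomes, was at 72.5, 48.3 and 86.2 in cKOHet and at 3.54, 2.22 and 5.40 in Control. The remaining 4 genes were Gm5127, Myadm, Trim16 and Evi5. Myadm, which encodes a membrane protein of lipid rafts, was at 68.5, 95.8 and 61.3 in cKOHet and at 8.15, 9.60 and 8.57 in Control, the highest Control mean of the 22 (8.78 ± 0.749, SD, n = 3). Trim16 was at 65.4, 61.4 and 54.0 in cKOHet and at 2.62, 0.0866 and 1.16 in Control, and Evi5, a GTPase-activating protein for Rab proteins, at 55.4, 50.3 and 46.7 against 4.47, 0.0839 and 3.28. The predicted gene Gm5127 was at 151, 51.0 and 75.9 in cKOHet, against 2.61, 9.61 and 1.17 in Control.

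Some of these values may include reads of other genes. In the annotation 14 of the 22 overlap another gene, 4 of them a gene that is itself in the table, and 8 overlap none. The 4 are Gm5127 with Cysltr1, Camk1 with Ogg1, Trim46 with Krtcap2 and Osbpl1a with Gm5687, each on the opposite strand. The strand setting of the counting is not given in the sources used here, so reads of these pairs cannot be told apart. Cysltr1, a receptor for cysteinyl leukotrienes, was far more abundant than Gm5127, at 633, 366 and 439 in the cKOHet libraries against 18.3, 17.0 and 31.8 in the Control libraries. The order of its cKOHet libraries (replicate 1, then 4, then 2) was also that of Gm5127.

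The limits of the choice fall among genes with similar values. Just inside the Control limit were Camk1, Ndrg4, Gm5127, Myadm and P4ha2, with highest Control values between 8.54 and 9.62. Just outside it were Dusp4, Rasl12, Gnb4, Pon3 and Gas7, with highest Control values of 10.9 to 12.7. Just inside the cKOHet limit were Ndrg4, Prickle1, Ppp2r2c, Tmod2 and Apbb1, whose lowest cKOHet values lay between 42.6 and 45.3. Just outside it were Kctd15, Klf8, As3mt, Tanc2 and Itsn1, at 37.2 to 39.3. Kctd15 and Klf8 had Control values of at most 0.0840 and 0.791, lower than those of most of the 22. The 9 genes left out by name reached cKOHet means of 61.1 (Il1rl1) to 858 (Itgad).

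**Figure D3:**
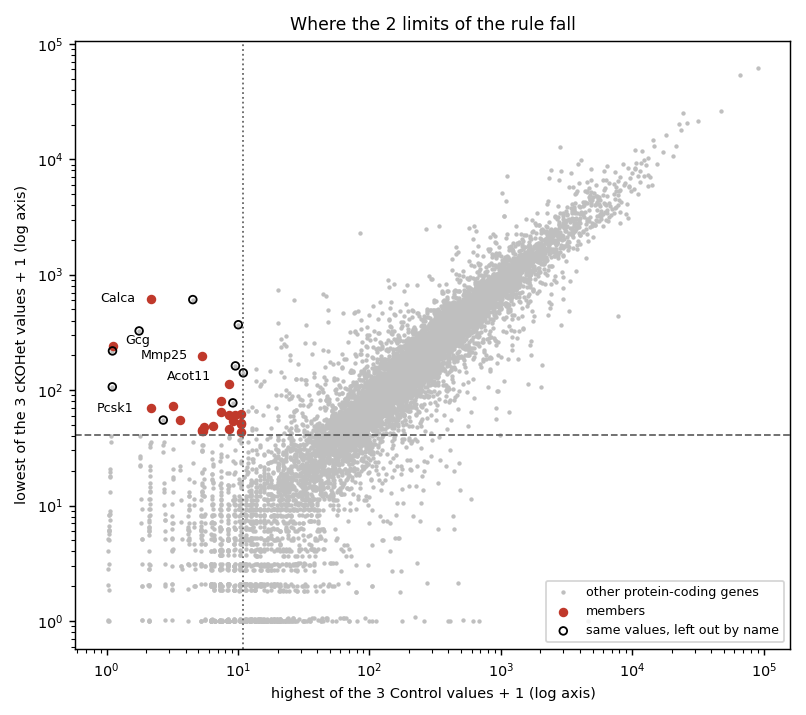
Lowest of the 3 cKOHet values + 1 against the highest of the 3 Control values + 1 for each protein-coding gene of the table (both axes log), with the 22 genes in red and the 9 left out by name as open circles. The dotted line marks the Control limit of 10 and the dashed line the cKOHet limit of 40, each plus 1, and several genes lie just beyond either line.

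The choice set a floor for the cKOHet libraries but not their order, so the spread among them could be described. The ratio of the highest to the lowest cKOHet value had a median of 1.60 over the 22 genes, between 1.15 (Trim46) and 4.13 (Ppp2r2c). Over 6680 genes at or above 40 in all libraries and with cKOHet means between 47.0 and 842, as for the 22, the median ratio was 1.30. The SD of log2(value + 1) among the cKOHet libraries had a median of 0.342 for the 22 and 0.197 for those 6680 genes. Levels were not matched within that range, and 16 of the 22 had means under 100. The part of level in the difference in spread was not tested. The ratio exceeded 2 for 5 genes: Ppp2r2c (4.13), Gm5127 (2.96), Apbb1 (2.27), Tmod2 (2.25) and Nsg2 (2.11). It was under 1.5 for 9 genes, with the lowest ratios at Trim46 (1.15), P4ha2 (1.17), Camk1 (1.18), Evi5 (1.18) and Trim16 (1.21). The 22 genes did not share 1 order of libraries. The highest library was cKOHet replicate 1 for 6 genes, replicate 2 for 11 and replicate 4 for 5 of the 22, against 30.1, 31.9 and 38.0% of the 6680 genes. The lowest was replicate 1 for 11, replicate 2 for 5 and replicate 4 for 6. Calca, Gcg and Acot11 were among those highest in replicate 2. In the same library Cd8a, a CD8 T cell marker, was at 1657, against 237 and 440 in cKOHet replicates 1 and 4, and Itgae at 1097 against 161 and 254. Cd8a was at 20.1, 10.7 and 12.8 in the Control libraries and was called higher in cKOHet (log2 difference 5.21, SE 0.50, limma adjusted p = 2.19e-06). Cd8b1, the other CD8 T cell marker listed, was low and not called (limma adjusted p = 0.607). It was at 15.1, 35.4 and 13.6 in the cKOHet libraries and at 3.56, 31.5 and 16.9 in the Control libraries. Whether CD8 T cells were present, and their part in the levels of the 22 genes, was not tested.

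**Figure D4:**
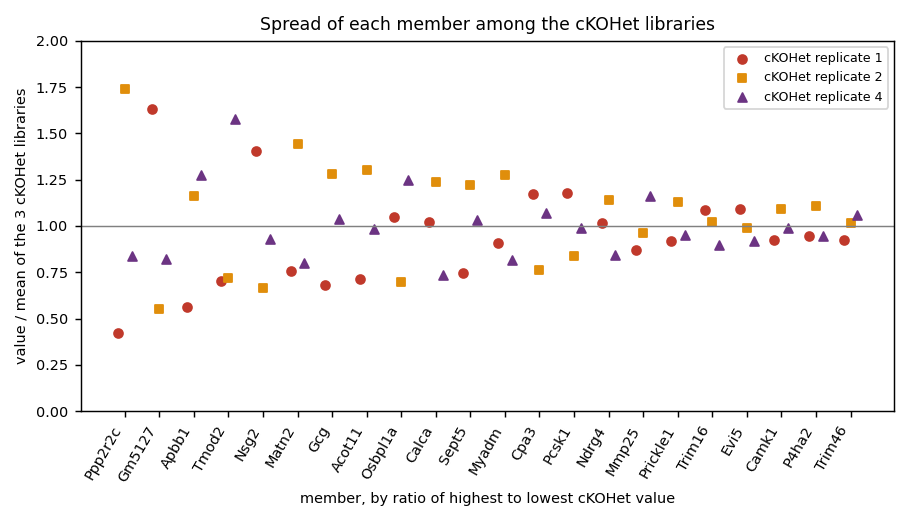
Value of each of the 22 genes in cKOHet replicates 1, 2 and 4 divided by the mean of these 3 libraries, ordered by the ratio of highest to lowest value. Ppp2r2c on the left spans a ratio of 4.13 and Trim46 on the right 1.15, and the library that is highest changes from gene to gene.

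The cells in the sort were compared with markers of other cell types that the 22 genes are known from. Cpa3 was the only one of 5 mast cell or basophil markers in the table, and Mcpt8, Mcpt4, Fcer1a and Ms4a2 were not in it. Gcg was likewise the only one of 7 enteroendocrine markers, and Chga, Chgb, Pyy, Neurod1, Pax6 and Scg2 were not in it. Calca was the only one of 6 neuron markers. In the table, the genes thus appeared without the other markers of those cell types. None of 5 neutrophil markers and none of 5 stellate cell markers was in the table. Macrophage or Kupffer cell markers were all in the table and low, with sums of 100.4 to 127 in cKOHet and 24.7 to 57.9 in Control, and of the 4 tested Clec4f and Csf1r were called higher (limma adjusted p = 0.0134 and 0.0117), Clec4f not without cKOHet replicate 2. Hepatocyte markers summed to 255 to 619 in cKOHet and 192 to 396 in Control, and neither of the 2 tested was called. Of 6 markers of group 2 innate lymphoid cells, the 4 tested were all higher, against 11.5% of all genes tested. Among them were Il13 (312 ± 19.5 in cKOHet and 15.3 ± 6.09 in Control) and Arg1 (272 ± 27.9 and 15.7 ± 7.51, SD, n = 3 each). Another of the 4, Il1rl1, met the limits of the choice and was left out by name, so its call was fixed in advance. Nmur1 was too low to be tested and Il5 was not in the table. NK cell markers summed to 92.8 to 139 in cKOHet and 32.8 to 60.3 in Control, and of the 4 tested Klra8 (limma adjusted p = 1.81e-04) and Eomes (limma adjusted p = 0.0390) were higher, Eomes not when most single libraries were left out. Klra8 passed the filter through the cKOHet libraries alone. Of regulatory T cell and dendritic cell markers, Ikzf2, Il2ra and Xcr1 were higher (limma adjusted p = 7.55e-08, 0.0322 and 0.0165). The Il2ra and Xcr1 calls were lost when any of several single libraries was left out. Ctla4 was not called (8.75 ± 5.57 in cKOHet and 12.9 ± 2.82 in Control, limma adjusted p = 0.478), and Zbtb46 was too low to be tested. Foxp3, Clec9a, Flt3 and Siglech were not in the table. Pecam1, an endothelial marker, and the B cell marker Ighm were lower (limma adjusted p = 8.44e-06 and 2.72e-05). The part of these cell types in the levels of the 22 genes was not tested.

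The 22 genes lie on 15 chromosomes, with 3 each on chromosomes 7 and 11. The closest 2 were P4ha2 and Trim16 on chromosome 11, 8.72 Mb apart, followed by Apbb1 and Calca on chromosome 7, 9.06 Mb apart (both between gene starts). They were therefore scattered singly, and each could be set beside its own neighbours, which the choice had not used. The 22 genes, those left out by name and every gene with a symbol starting Slc were passed over as neighbours. They were not removed from the set of all genes used for comparison. For Nsg2 this skipped Il9r, which starts nearer than the neighbour used. The nearest remaining protein-coding gene on each side gave 44 genes, of which 26 were in the table and 25 were tested. Of these, 12 were higher in cKOHet (48.0%), 2 were lower and 11 were not called, against 12.4% higher over all protein-coding genes tested. Their median log2 difference was 0.37, against 0.03 over those genes. Those with a higher nearest neighbour were 11 of the 18 genes that had one tested. Calcb, among the higher neighbours, passed the filter through the cKOHet libraries alone, so it could only be called higher. Without genes that overlap one of the 22, 11 of 22 nearest neighbours were higher. In the high-Xist libraries alone, 8 of 25 were higher, against 8.01% of all genes there. With single libraries left out the count lay between 8 and 10, and without the variance trend it was 8, against 7.99% of all genes.

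The share of higher neighbours was smaller in wider windows. Within 100 kb of a start, 12 of 41 tested neighbours were higher (29.3%) and 3 lower. Within 500 kb, 41 of 184 were higher (22.3%) and 15 lower. The same genes were passed over in these windows. The largest differences were at Calcb beside Calca and Cysltr1 overlapping Gm5127 (4.38, SE 0.28, limma adjusted p = 3.71e-08), whose values are given with the ligands and with the overlapping genes. Hrh4, the histamine H4 receptor gene 65.1 kb from Osbpl1a, followed at 631, 461 and 727 in the cKOHet libraries, against 61.7, 44.4 and 41.4 in the Control libraries (3.59, SE 0.22, limma adjusted p = 2.01e-08). Each of these neighbours was higher in every cKOHet library than in any Control library. Calcb was in the lowest band in Control, whereas Cysltr1 and Hrh4 had reads in every Control library. Dpp4 beside Gcg (71.4 kb) has been described with the processing enzymes, and the gene on the other side of Gcg, Fap, was not in the table. Trim3, a ubiquitin ligase gene 51.9 kb from Apbb1, was at 88.6, 81.7 and 70.7 in cKOHet and at 44.3, 15.9 and 23.4 in Control (1.61, SE 0.37, limma adjusted p = 0.00495).

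Other neighbours changed less. Ssbp3 beside Acot11, Hcfc1r1 near Mmp25, Smpd1 beside Apbb1, Cast beside Pcsk1 and Tmod3 beside Tmod2 were higher by 1.03, 1.08, 0.74, 0.68 and 0.59 on the log2 scale, each with a limma adjusted p of at most 0.00510, Smpd1 not without the variance trend. Csf2, the GM-CSF gene 150 kb from P4ha2, was at 121, 130 and 102 in cKOHet, against 56.2, 66.5 and 64.5 in Control (0.90, SE 0.24, limma adjusted p = 0.0124), and lost its call without cKOHet replicate 2. Laptm4b beside Matn2 (1.34), Impact beside Osbpl1a (0.76), Lysmd2 beside Tmod2 (0.51) and Man2b2 beside Ppp2r2c (0.42) were called as well, and each lost its call when any of several single libraries was left out. Neighbours that were lower were Zfp287 near Trim16 (-1.98, SE 0.33, limma adjusted p = 4.23e-04), Krtcap2 overlapping Trim46 (-0.67, SE 0.14, limma adjusted p = 0.00343) and Gins3 beside Ndrg4 (-1.14, SE 0.37, limma adjusted p = 0.0365), the last not without cKOHet replicate 1 or 4 or Control replicate 2 or 4. Beside Cpa3 no tested neighbour was called, and Cyp2r1, on the other side of Calca, had too few reads to be tested.

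**Figure D5:**
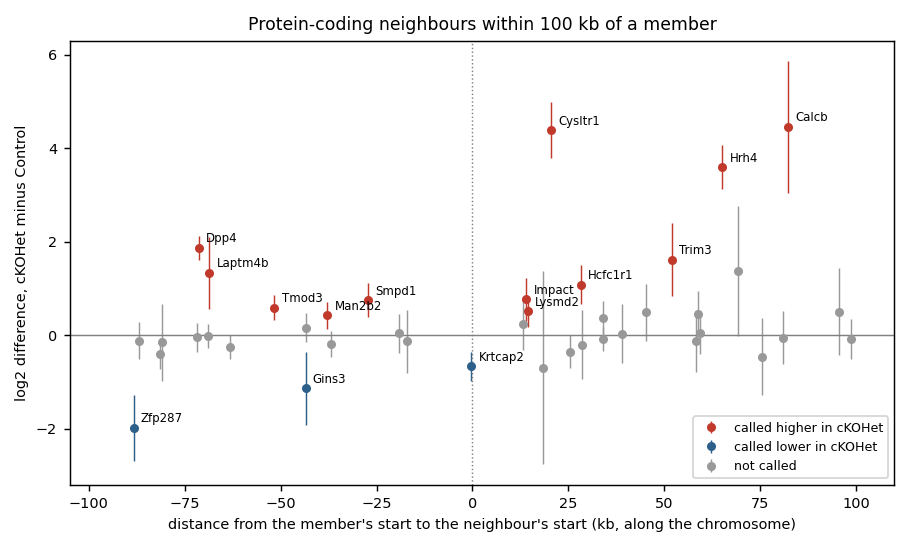
Log2 difference of cKOHet minus Control (on log2(value + 1), with 95% intervals from limma) for tested protein-coding genes whose start lies within 100 kb of the start of one of the 22 genes, against the distance along the chromosome in kb. Red points were called higher in cKOHet, blue points lower and grey points not called, with 12 red and 3 blue among 41. The 22 genes, those left out by name and genes with symbols starting Slc are not shown.

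Genes for the machinery that keeps developmental genes silent were measured as well, because genes of other cell types are commonly held off by Polycomb complexes and DNA methylation. All 32 listed were tested, and 3 were higher, 2 lower and 27 not called, against 11.5% higher and 9.97% lower over all genes. Dnmt3a, a de novo DNA methyltransferase, averaged 532 ± 48.7 in cKOHet and 363 ± 32.2 in Control (0.55, SE 0.14, limma adjusted p = 0.00886). Dnmt3b, its homologue, averaged 42.0 ± 7.87 in cKOHet and 88.2 ± 6.07 in Control (-1.07, SE 0.27, limma adjusted p = 0.0110). Phf1, a Polycomb accessory subunit, averaged 577 ± 49.9 and 852 ± 116 (-0.56, SE 0.13, limma adjusted p = 0.00679), and Aebp2, another, 1085 ± 196 and 763 ± 51.9 (0.49, SE 0.14, limma adjusted p = 0.0199). The Aebp2 call was lost without cKOHet replicate 2 or 4 or Control replicate 1 or 2. Without the variance trend, or in the high-Xist libraries alone, Dnmt3a (limma adjusted p = 0.0519 and 0.0559), Phf1 (0.0630 and 0.0755), Aebp2 (0.121 and 0.0874) and Pcgf3 (0.0793 and 0.222) were not called. Pcgf3 averaged 157 ± 33.9 in cKOHet and 79.5 ± 34.3 in Control (1.03, SE 0.28, limma adjusted p = 0.0165), a call that was lost without cKOHet replicate 4 or Control replicate 2 or 4. The core genes Ezh2, Eed, Suz12 and Dnmt1 were not called, with log2 differences between -0.31 and -0.06 (limma adjusted p between 0.0941 and 0.791). The levels of these genes do not measure the marks they set, which were not assayed.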

How the data were processed

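RNA sequencing of sorted liver cells, titled iNKT1 or iNKT, gave 6 libraries, 3 per group. The authors deposited a signal per gene, normalised read counts that are not whole numbers. The submitters' processing notes list Trimmomatic 0.33, STAR, HTSeq 0.6.1, DESeq2 and the genome build mm10. Per the labels' protocols, RNA came from RNeasy mini kits and libraries from the Ovation Ultralow system. The method of normalisation (like the annotation and any use of strand) was not given in the sources used here, which leaves the depth in reads unknown. Every gene listed reaches at least 5.22 in some library, so a gene that is not in the table may be low or absent.

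GENCODE M21 on GRCm38 named 12870 identifiers and left 72 unnamed. Values were analysed as log2(value + 1), which understates the change of low genes. Genes at or above 10 in at least 3 libraries were tested with limma 3.58.1 in R 4.3.3 (mean-variance trend, no covariates) and Benjamini-Hochberg adjustment, and called at an adjusted p under 0.05. Since the labels do not name the mice, a p-value reflects only how far these libraries vary. An exact permutation test of 3 against 3 cannot go below 0.1 and was not used. The procedure was tested on simulated data.

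The 22 genes, the gene lists and the tests were chosen with earlier results of these data known. Genes named are Ets1 and Tbx21, the 22 genes, those just inside and outside the limits, called neighbours, and called members of each list. Others (the markers, genes of the labelled cells, Cysltr1 as an overlapping gene, Itgae, and uncalled list members) were named after their values were seen. Alternatives changed the added constant, the filter on low values, the scaling, the variance trend, the threshold, the window, the limits of the choice, a replicate block and each library left out. A term for low Xist, the high-Xist libraries alone and neighbours without overlap were added after seeing the data.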

Additional observations from a re-analysis of the deposited data

How the results depend on the processing

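The number of genes that met the limits followed the limits: 10 with a Control limit of 5, 44 with 20, 64 with a cKOHet limit of 20, 4 with 80 and 55 when group means were used, against 22. Leaving out single libraries gave 22 to 31, and all gene types 30. At a threshold of 0.01, 1476 genes were called in place of 2407 and 7 nearest neighbours were higher in place of 12. With single libraries left out, 1883 to 2207 genes were called, 8 to 10 nearest neighbours were higher, 8 to 10 within 100 kb, and 12 to 15 list members were called. With a window of 500 kb, 41 neighbours were higher in place of 12. In the high-Xist libraries alone 9 list members were called in place of 15, and Furin, not called in either fit, had a log2 difference of -0.0522 in place of 0.34. Other genes that were not called changed sign without 1 library: Suz12 (-0.1407 to 0.0144), Ezh2 (-0.242 to 0.0820) and Traj18 (-0.0398 to 0.3576). Without the variance trend 1670 genes, 8 higher nearest neighbours and 10 list members were called. A stricter threshold can only lower such counts and a wider window can only raise them. The cause of the other changes, those with fewer libraries included, was not tested. The motif CCGGAA was in 0% of the members' windows when only the 100 bases upstream were searched, in place of 16.7% (9.88% of all windows). Of 1000 recalculations for 63 genes outside the set, 901 kept direction and call, 94 kept the direction and lost the call, 1 gained it and 4 reversed. Same-numbered libraries of the groups did not deviate together enough to count as pairs (correlations 0.0809, 0.0767 and 0.00917), and cKOHet replicates 1 and 2, but not 4, correlated best with their own number. A replicate block gave 2412 calls and 12 higher nearest neighbours. The depth behind the normalised values is unknown, so Control values of a few counts could not be given an interval.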

Other observations

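Of genes that met the same limits but are not annotated as protein-coding, 8 were in the table: 5 lincRNAs, 2 transcripts of the annotation class TEC and 1 processed pseudogene. Their positions were looked at after their values were seen, and 3 of them lie past the 3′ end of Ets1 itself on chromosome 9. Gm3331, 55.9 kb past it, was at 267, 279 and 188 in the cKOHet libraries and at 0, 0.103 and 0.107 in the Control libraries. Gm37192, 213 kb past it, was at 199, 180 and 122 in cKOHet, against 0, 0.100 and 0.104 in Control. Gm27166, 274 kb past it, was at 67.5, 112 and 48.9 in cKOHet and at 0, 0.0903 and 0.0940 in Control. Gm27162, a lincRNA between them (147 kb), missed the Control limit in replicate 4 alone, at 251, 187 and 132 in cKOHet against 9.98, 1.16 and 20.2 in Control. Fli1, the Ets-family gene on the other side of Ets1, was at 1009, 932 and 1119 in cKOHet and at 866, 874 and 850 in Control, and was not called (log2 difference 0.24, SE 0.12, limma adjusted p = 0.178). On 1 side of the targeted gene, Gm3331, Gm37192 and Gm27166 were thus at the floor in Control and present in cKOHet, where Ets1 itself was lower. Gm27162 was above the floor in every Control library. The origin of these transcripts was not tested.

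A further 2 of the 8 lie beside Nrp2 on chromosome 1. The lincRNA Gm4208 had the highest mean normalised read count of all genes that met the limits, at 1352, 1367 and 1183 in the cKOHet libraries, against 6.30, 4.33 and 3.29 in the Control libraries. Gm37121 was at 214, 243 and 81.2 in cKOHet and at 0, 0.101 and 0.105 in Control. Nrp2, the neuropilin-2 gene 2.66 kb away from Gm4208, was at 748, 658 and 760 in cKOHet against 9.98, 45.5 and 43.5 in Control (log2 difference 4.67, SE 0.40, limma adjusted p = 6.90e-07). Gm37121 overlaps Nrp2 in the annotation, so reads of these genes may not be told apart.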
